A study of Drosophila melanogaster with 6 samples.

Results

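In male *Drosophila*, the single X chromosome is transcribed at an elevated rate to match the output of paired autosomes. The male-specific lethal (MSL) complex carries this dosage compensation and is built from the proteins of *msl-1*, *msl-2*, *msl-3*, *mle* and *mof* together with the noncoding RNAs *roX1* and *roX2*, which are transcribed from the X. MSL1 and MSL2 form the core that binds the X, MLE is a helicase that remodels the roX RNAs so that they can enter the complex, MSL3 reads a histone mark of transcribed genes, and MOF acetylates lysine 16 of histone H4. Females keep the complex from forming because the Sex-lethal protein (SXL) blocks translation of *msl-2* mRNA.

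These 7 genes were taken by their FlyBase symbols from the 17492 genes of a head RNA count table, all 7 were among the 8773 genes with enough reads for a test, and 5 of them code for proteins. Heads of 30d flies were compared with heads of 3d flies, with 3 samples of each age, to see how transcript levels differed with age. All flies were of line 5905 (*w1118*), so both ages carried the same mutation of the *white* gene, and no treatment separated them. The labels give no sex, and the study's methods state that males were collected and aged. No source says how many heads entered a library, and whether the replicates came from separate cultures is not stated, so the p-values measure only the spread between these samples.

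The libraries held 3479385 to 3544615 counts at 30d and 3176380 to 3741860 at 3d, at which depth a gene of a few CPM (counts per 1000000 counts of the library) rests on few reads. The female fat body genes that code for yolk proteins were read as markers of female heads. *Yp1* had 14, 4 and 8 counts in the 30d libraries, and 0 in each 3d library, where a count of 0 allows up to 3. It shares 54.3% of its exon bases with another gene, so its count is uncertain. *Yp3* stood at 48.4 ± 2.71 CPM at 30d and 35.9 ± 5.26 CPM at 3d (SD, n = 3 each), a log2 change of 0.42 (edgeR BH-adjusted p = 0.0149) whose call was lost without 3d replicate 1 or 30d replicate 3, and under DESeq2's Wald test (adjusted p = 0.0805). *Yp2* had 7 to 9 counts at 30d and 1 to 7 at 3d. The roX RNAs, which females hardly keep, had 127 or more counts in every library, but their levels are themselves compared here. The share of female heads in each library was not tested.

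Both roX RNAs were lower in 30d heads, and the transcripts of the 5 protein subunits did not pass the test. *roX1* fell by 0.58 and *roX2* by 0.74 on the log2 scale, whereas the log2 fold changes of the protein genes lay between 0.08 and 0.34 and were all positive. In edgeR's quasi-likelihood test 2 of the 7 genes passed the threshold of 0.05 after Benjamini-Hochberg (BH) adjustment, both lower at 30d, in a table where 30.4% of all genes tested were called and 16.1% were called lower. CPM here are read counts scaled to library size with the TMM factors of edgeR. In these bulk heads, fewer cells of a type and less RNA per cell cannot be told apart.

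**Figure D1:**
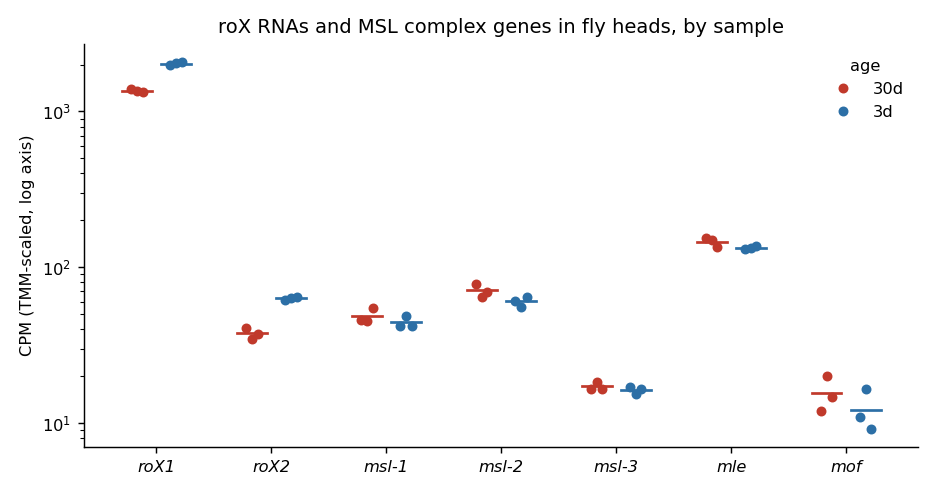
Level of each gene in CPM on a log axis, by sample, with 30d samples (red) left of 3d samples (blue) and a bar at the mean of the 3 samples. The ages stand apart for *roX1* and *roX2*, with all 30d points below the 3d points, and overlap for the 5 protein genes.

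*roX1* (FBgn0019661) is a noncoding gene of the X (dm6, chrX:3857230-3862697, minus strand) whose annotated exons merge into 1 block of 5468 bases. It was measured at 1404, 1356 and 1326 CPM in the 30d samples and at 1978, 2049 and 2068 CPM in the 3d samples. The highest 30d sample lay well below the lowest 3d sample, and the spread within either age was small beside the gap between them. The mean was 1362 ± 39.0 CPM at 30d and 2032 ± 47.6 CPM at 3d (SD, n = 3 each), which left the 30d level at 0.670 of the 3d level. On the log2 scale the change was -0.58 ± 0.08 (SE), with a 95% interval of -0.75 to -0.40 (edgeR BH-adjusted p = 0.000227). These values rest on 4636 to 5153 reads per 30d library and 6021 to 7502 per 3d library, so *roX1* alone took 0.140% ± 0.00628 of all counts at 30d and 0.197% ± 0.00673 at 3d (SD, n = 3 each).

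*roX2* (FBgn0019660), on the plus strand at chrX:11579065-11580432, is the shorter of the pair, with 1368 bases of exon. Either RNA can sustain dosage compensation when the other is missing, although they share little sequence beyond short conserved motifs. *roX2* stood at 40.9, 34.7 and 37.5 CPM in the 30d samples, against 61.4, 63.6 and 64.0 CPM in the 3d samples. As with *roX1*, no 30d sample reached any 3d sample. The mean was 37.7 ± 3.07 CPM at 30d and 63.0 ± 1.40 CPM at 3d (SD, n = 3 each), and the log2 change was -0.74 ± 0.10 (SE), with a 95% interval of -0.96 to -0.53 (edgeR BH-adjusted p = 0.000181). The depth here was far lower, at 127 to 150 reads per 30d library and 187 to 233 reads per 3d library.

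The falls of the roX RNAs were not extreme within the table. Of the 8773 genes tested, 597 had a lower log2 fold change than *roX1* and 312 a lower one than *roX2*, and among the 1446 genes of the X these numbers were 109 and 49. The CPM of the ages did not overlap for 2 of the 7 genes, the roX RNAs, and 44.8% of all genes tested shared that property, 22.5% with the 30d samples lower. Scaled to exon length, *roX1* ranked 4 and *roX2* ranked 10 by mean level among the 128 noncoding RNA genes tested. Of those 128 genes, 17 were called higher and 19 lower at 30d, with a median log2 fold change of 0.03.

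Among the protein genes, *msl-2* (FBgn0005616, chr2L:3462218-3466112, minus strand) came nearest to a difference. It codes for the subunit made only in males and is the limiting switch for assembly of the complex. Its level was 78.5, 64.5 and 69.5 CPM in the 30d samples and 60.8, 55.4 and 64.6 CPM in the 3d samples. The lowest 30d sample stood just under the highest 3d sample, so the ages overlapped by a narrow margin. The log2 change was 0.23 ± 0.10 (SE), with a 95% interval of 0.01 to 0.46, and edgeR gave an unadjusted p of 0.0416 and a BH-adjusted p of 0.106. Scaled only by library size, it was 0.31 and passed (edgeR BH-adjusted p = 0.0391), a scaling that moved the median of all genes tested up by 0.077. Over the 7 alternatives that kept all samples, the adjusted p ranged from 0.0391 to 0.354.

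*mle* (FBgn0002774, chr2R:5974857-5980778, minus strand), the helicase gene, was the most abundant of the protein genes. It had 153, 149 and 134 CPM in the 30d samples and 131, 133 and 137 CPM in the 3d samples. One of the 30d samples fell inside the 3d range and the others above it (log2 change 0.12 ± 0.08 SE, edgeR BH-adjusted p = 0.270).

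*msl-1* (FBgn0005617, chr2L:18683720-18688800, minus strand), the scaffold on which the other subunits assemble, had 45.5, 45.4 and 54.9 CPM at 30d and 42.0, 48.6 and 41.8 CPM at 3d. The ranges overlapped (log2 change 0.13 ± 0.11 SE, edgeR BH-adjusted p = 0.400). *msl-3* (FBgn0002775, chr3L:7123213-7125533, minus strand), the chromodomain subunit, had 16.6, 18.3 and 16.6 CPM at 30d and 17.1, 15.3 and 16.6 CPM at 3d, with a log2 change of 0.08 ± 0.14 (SE, edgeR BH-adjusted p = 0.730). It was the flattest of the 7 genes.

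*mof* (FBgn0014340, chrX:5873840-5876853, minus strand), the acetyltransferase gene and the only protein gene of the complex on the X, was also its least abundant. The 30d samples had 12.0, 19.97 and 14.6 CPM, and the 3d samples 10.8, 16.4 and 9.19 CPM. Replicate 2 was the highest at both ages, and the spread within an age was as large as the difference between them. With only 31 to 73 reads per library the log2 change was 0.34 ± 0.24 (SE), with a 95% interval of -0.17 to 0.85 (edgeR BH-adjusted p = 0.306), and it lay between 0.11 without 30d replicate 2 and 0.64 without 3d replicate 2.

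The intervals of the protein genes did not meet those of the roX RNAs. Their lower bounds were 0.01 for *msl-2*, -0.11 for *msl-1*, -0.23 for *msl-3*, -0.05 for *mle* and -0.17 for *mof*, against upper bounds of -0.40 for *roX1* and -0.53 for *roX2*. Of the 5 protein genes, 0 passed edgeR's test after adjustment, beside 30.4% of all genes. At an unadjusted p under 0.05, 1 passed, *msl-2*, beside at least 30.4% of all genes, since adjustment never lowers a p-value. DESeq2's Wald test also called 0 of the 5, beside 17.6% of all genes, and limma-voom 0, beside 30.3%. With 5 genes, a count of 0 lies below such shares, but so few genes give no result about the set. Together the 5 mRNAs summed to 297 ± 8.07 CPM at 30d and 267 ± 3.85 CPM at 3d (SD, n = 3 each), with all 30d samples above all 3d samples (exact two-sided permutation test, p = 0.1, the smallest that 3 samples against 3 allow). Abundant genes weigh most in this sum, and *mle* alone averaged 145 CPM at 30d and 134 CPM at 3d. Of all single genes tested, 44.8% also had ages that did not overlap.

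Levels of different genes were compared per kilobase of merged annotated exon. For *roX1* and *roX2* this is the whole span of the gene, as their exons merge into 1 block. Orders and ratios between genes depend on these lengths. In 30d heads the order was *roX1* at 249 CPM per kb, *mle* at 31.3, *roX2* at 27.6, *msl-2* at 18.4, *msl-1* at 9.68, *msl-3* at 8.72 and *mof* at 5.15. In 3d heads it was *roX1* at 372 CPM per kb, *roX2* at 46.1, *mle* at 28.8, *msl-2* at 15.7, *msl-1* at 8.79, *msl-3* at 8.29 and *mof* at 4.03. *mle* stood above *roX2* within each 30d library, at 33.0 and 29.9, 32.0 and 25.4, and 28.9 and 27.4 CPM per kb, although the 30d ranges of these genes overlapped, whereas *roX2* stood above *mle* in each 3d library. *msl-1* and *msl-3* overlapped at both ages, and all the other neighbours in these orders were apart.

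Ratios between genes within a library do not depend on how libraries are scaled. *msl-2* was taken as the denominator after its values were seen. Per kilobase, *roX1* stood at 12.6, 14.8 and 13.4 times *msl-2* in the 30d samples and at 22.9, 25.97 and 22.5 times *msl-2* in the 3d samples. The ages were far apart in this ratio, with means of 13.6 ± 1.11 at 30d and 23.8 ± 1.91 at 3d (SD, n = 3 each) and a log2 difference of -0.81. *roX2* stood at 1.46, 1.51 and 1.51 times *msl-2* at 30d, against 2.84, 3.22 and 2.78 times at 3d, a log2 difference of -0.98. Each of these comparisons gave p = 0.1 in an exact two-sided permutation test, the smallest possible with these samples. Both roX RNAs were already apart between the ages, so the separation of these ratios adds no independent support.

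The balance between the roX RNAs moved little. *roX1* exceeded *roX2* per kilobase by 8.59, 9.77 and 8.85 times in the 30d samples and by 8.06, 8.06 and 8.08 times in the 3d samples. All 30d samples were higher, with a log2 difference of 0.17 (exact two-sided permutation test, p = 0.1, the smallest possible). Counting error of a single library's ratio was between 0.10 and 0.13 on the log2 scale, which was larger than the spread among the 3d samples.

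**Figure D2:**
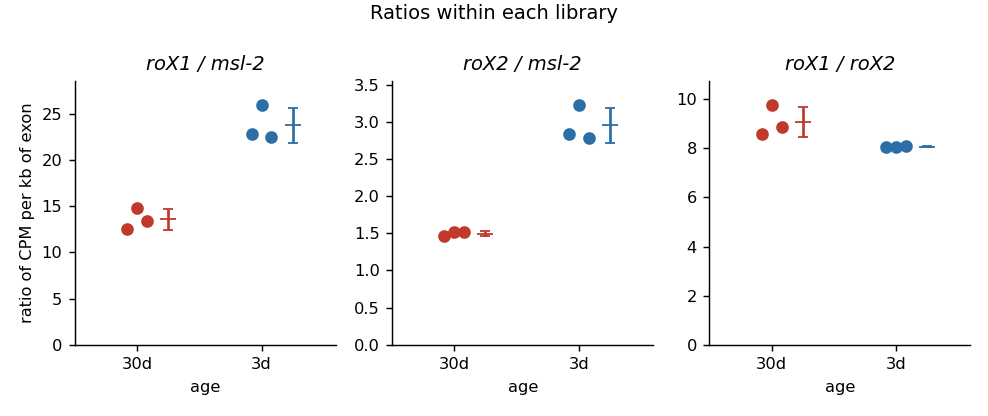
Ratios of length-scaled levels within each library for *roX1* over *msl-2*, *roX2* over *msl-2* and *roX1* over *roX2*, with 30d (red) left of 3d (blue), points for samples and a dash with bars for mean ± SD. The first 2 ratios are lower at 30d in every sample, and the third is about 9.07 on average at 30d and 8.06 at 3d.

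The roX falls held under the other ways of processing the counts that were tried. With each sample left out in turn, *roX1* lay between -0.60 and -0.56 and *roX2* between -0.80 and -0.68, and each passed the threshold in 6 of 6 fits. Over the 7 alternatives that kept all samples, *roX1* lay between -0.59 and -0.50 and *roX2* between -0.75 and -0.66, with the smallest falls under scaling by library size alone. *mle*, *msl-1*, *msl-3* and *mof* passed in 0 of these 13 fits, and *msl-2* in 1. The share of all genes called in these fits was 30.3% with DESeq2's size factors, 31.6% with library size alone, 17.6% with DESeq2's Wald test, 30.3% with limma-voom, 21.7% without a filter beyond 1 count, 31.4% with 10 counts in every sample and 33.1% with the replicate number as a block. With a sample left out it was 29.2%, 21.2% and 22.0% without 30d replicates 1, 2 and 3, and 23.7%, 27.2% and 23.6% without 3d replicates 1, 2 and 3. At each of these shares the same pair of genes among the 7 was called, with *msl-2* added once.

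**Figure D3:**
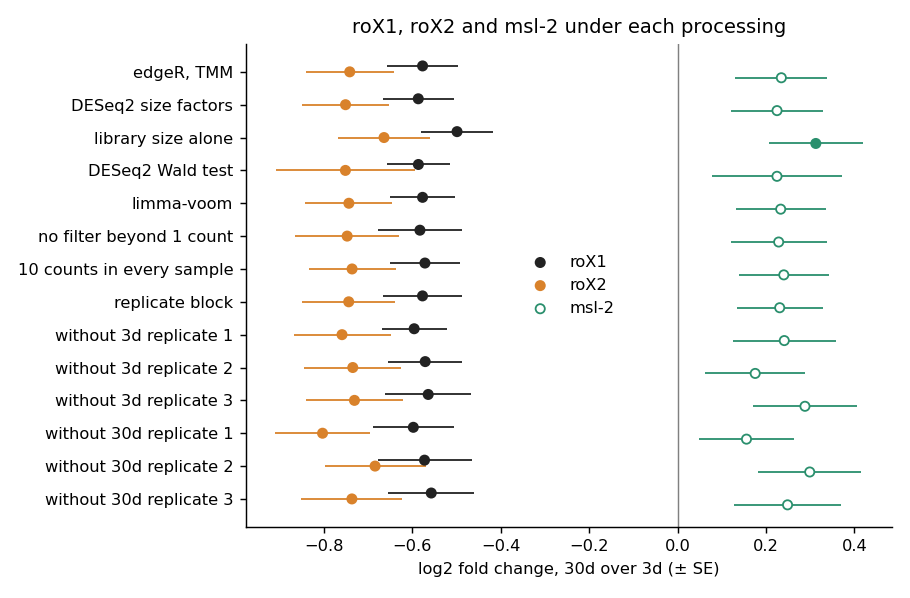
log2 fold change, 30d over 3d, with its standard error, for *roX1*, *roX2* and *msl-2* under the edgeR fit with TMM scaling (top) and each alternative, filled where the adjusted p is under 0.05. Both roX RNAs lie between -0.80 and -0.50 and are filled throughout, and *msl-2* is filled only with library size alone, at 0.31.

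Neighbouring genes were examined because counting without regard to strand can mix overlapping transcripts. The downstream end of *roX1* overlaps the opposite-strand gene *ec*, which is needed for pruning of cells in the pupal eye, over 7.17% of its exon bases, and the counting mode assigns reads that lie wholly in such an overlap to neither gene. *ec* had 41, 60 and 52 counts in the 30d libraries and 60, 50 and 43 in the 3d libraries, beside 4636 to 7502 for *roX1*. *yin*, a peptide transporter gene that ends 269 bases upstream of *roX1* on the same strand, rose to 53.3 ± 5.37 CPM at 30d, against 34.7 ± 2.60 CPM at 3d (SD, n = 3 each), a log2 change of 0.62 ± 0.11 (SE, edgeR BH-adjusted p = 0.00123). It therefore moved against *roX1*. No exon of another gene overlaps *roX2*. Of the 13 annotated genes within 10 kb of *roX2*, 6 could be tested and 1 was called, beside 30.4% of all genes tested. The called gene was *pkm*, at a log2 change of -0.29 ± 0.09 (SE, edgeR BH-adjusted p = 0.0283). It lost its call without 3d replicate 3, 30d replicate 1 or 30d replicate 2, and with library size alone (edgeR BH-adjusted p = 0.0740). The other 5, *Polr2A* among them, which codes for the largest subunit of RNA polymerase II, were not called and ranged from -0.30 to 0.33.

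A list of 13 genes linked to dosage compensation, here the cofactor list, was examined next. It includes the X-binding zinc finger protein CLAMP, the kinase JIL-1, the RNA-binding protein UNR and proteins of the nuclear pore and of heterochromatin. It also holds *Pof*, whose protein regulates chromosome 4, so not all 13 are partners of the complex. Of the 13, 2 were called higher at 30d and 0 lower, with a median log2 fold change of 0.08. The median was 0.02 for all genes tested, of which 14.4% were called higher and 16.1% lower. In a list of 13, the count of 2 higher lies near its share and the count of 0 lower lies below its share. The list was not tested against other genes. *Mgtor*, the nuclear pore basket gene Megator, had 89.99 ± 4.67 CPM at 30d and 73.5 ± 4.74 CPM at 3d (SD, n = 3 each), a log2 change of 0.29 ± 0.09 (SE, edgeR BH-adjusted p = 0.0234). *Unr*, whose protein helps SXL to repress *msl-2* in females, had 477 ± 21.1 CPM at 30d and 394 ± 49.99 CPM at 3d, a log2 change of 0.28 ± 0.10 (SE, edgeR BH-adjusted p = 0.0415). The *Mgtor* call was lost without 3d replicate 2 or 30d replicate 3, and of the 6 fits with a sample left out *Unr* was called in 1, without 3d replicate 1. *Unr* was also not called with DESeq2's size factors (adjusted p = 0.0541). Neither passed DESeq2's Wald test (adjusted p = 0.133 for *Mgtor* and 0.0523 for *Unr*). The abundant *Hrb27C* and *Nup153* were at 0.08 and 0.05, and the 11 genes not called ranged from -0.16 to 0.22. *Trl*, among these, shares 77.8% of its exon bases with other genes, so its count is uncertain.

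MOF also works in the non-specific lethal (NSL) complex, which binds promoters on all chromosomes in both sexes. Of its 8 genes and associated factors tested, 1 was called higher and 0 lower, with a median log2 fold change of -0.0023, beside 14.4% higher and 16.1% lower among all genes. The call was *pzg*, a zinc finger chromatin protein, at 85.2 ± 7.53 CPM at 30d and 70.3 ± 4.54 CPM at 3d (SD, n = 3 each), a log2 change of 0.28 ± 0.10 (SE, edgeR BH-adjusted p = 0.0435), and it was lost when any of 4 samples was omitted (without 3d replicate 1, 3d replicate 3, 30d replicate 1 or 30d replicate 2). *nsl1*, which holds MOF in that complex, was at -0.10, *Rcd1* at 0.03 and *Chro* at -0.05, the last turning to 0.03 with library size alone and *Rcd1* to -0.01 without 30d replicate 2.

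Other histone acetyltransferases gave 1 call, a higher one, in 6 genes, beside 14.4% higher among all genes, and 0 to 2 calls over the alternatives. *Gcn5*, the catalytic subunit of the SAGA coactivator, was higher at 62.4 ± 4.03 CPM at 30d, against 48.7 ± 0.432 CPM at 3d (SD, n = 3 each), a log2 change of 0.36 ± 0.10 (SE, edgeR BH-adjusted p = 0.0126), although the call was lost without 30d replicate 2. *nej*, *enok* and *Hat1* were at -0.17, 0.14 and -0.19 and were not called, and the median of the 6 was 0.23. DESeq2's Wald test called neither *Gcn5* (adjusted p = 0.0941) nor *pzg* (adjusted p = 0.184).

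**Figure D4:**
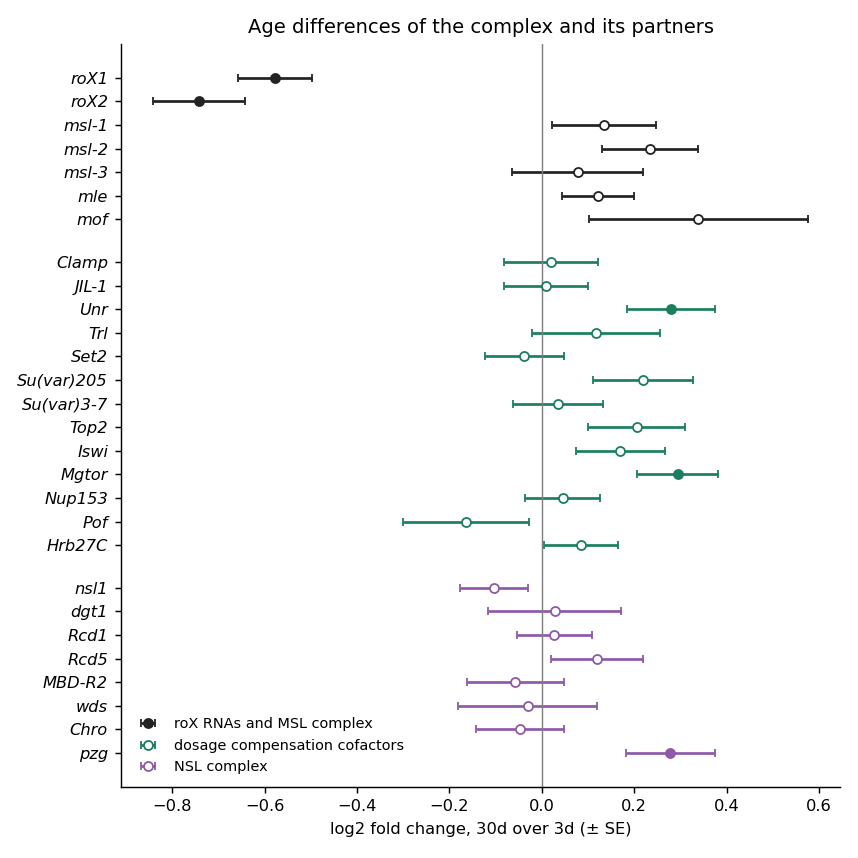
log2 fold change, 30d over 3d, with its standard error for the 7 genes (black), the 13 genes of the cofactor list (green) and 8 NSL complex genes (purple), filled where the adjusted p is under 0.05. The roX RNAs lie at -0.58 and -0.74, and the lowest of the other genes shown is at -0.16.

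Sex determination genes were also examined, of which *Sxl* stands upstream of the complex. *Sxl*, whose female protein shuts off *msl-2* translation, had 292 ± 13.1 CPM at 30d and 324 ± 24.8 CPM at 3d (SD, n = 3 each), a log2 change of -0.15 that was not called (edgeR BH-adjusted p = 0.190). These counts do not tell apart its male and female splice forms. Of the 10 sex determination genes listed, 2 were called higher and 1 lower, beside 30.4% of all genes called, with a median log2 fold change of 0.05. *dsx* rose by 0.54 and *fru* fell by 0.52 on the log2 scale, both transcription factors that shape the sexes, and each passed with any sample left out. *vir*, needed for *Sxl* splicing, rose by 0.38, but it did not pass DESeq2's Wald test (adjusted p = 0.194) and lost its call when any of 4 samples was omitted (without 3d replicate 1, 3d replicate 2, 30d replicate 1 or 30d replicate 2).

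The X is where the complex acts, so its genes were set beside those of the autosomes. Of the 1446 genes of the X tested, 155 were called higher and 255 lower at 30d, or 10.7% and 17.6%. On the arms 2L, 2R, 3L and 3R, 1085 of 7154 were higher and 1101 lower, or 15.2% and 15.4%. The lower calls were thus 62.2% of all calls on the X and 50.4% of those on the autosome arms. With scaling by library size alone these shares were 44.3% and 36.3%, so the excess of lower calls over higher ones on the X turned round under that scaling, while the X kept the larger share of lower calls. The median log2 fold change was -0.01 for the X and 0.03 for the autosome arms, a gap of -0.04 that was also -0.04 with library size alone but 0.00 without a filter on low counts. No test was made across genes.

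Measured per library, the X did not stand apart between the ages. Its share of the counts on the 6 chromosome arms was 15.5%, 15.5% and 15.1% in the 30d samples, against 15.7%, 15.4% and 15.7% in the 3d samples. The values overlapped, with a difference of -0.25 percentage points (exact two-sided permutation test, p = 0.3), and -0.19 when *roX1* and *roX2* were left out. *roX1* alone made up 0.994% ± 0.0295 of the X-linked counts at 30d and 1.43% ± 0.0525 at 3d (SD, n = 3 each). The ratio of the median length-scaled level of X-linked genes to that of autosomal genes was 0.920 ± 0.0163 at 30d and 0.926 ± 0.0202 at 3d (SD, n = 3 each, exact two-sided permutation test, p = 0.5). The lower roX levels were measured beside an X to autosome ratio whose difference between the ages was smaller than its spread among replicates. The difference in the X's share of counts was larger than the SD of that share (0.214 at 30d and 0.163 at 3d), although its values overlapped. Within 1 Mb of *roX1* and of *roX2*, the 71 and 142 other X-linked genes tested had medians of -0.05 and -0.06.

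**Figure D5:**
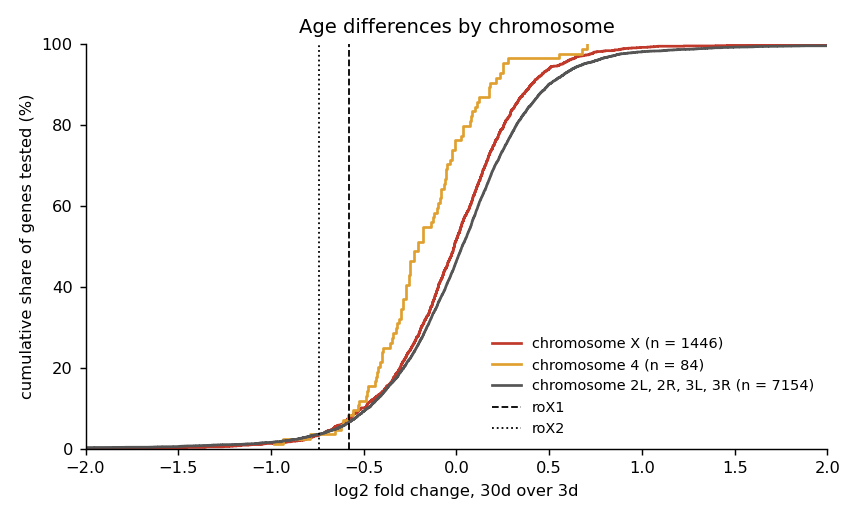
Cumulative share of the genes tested, in percent, against the log2 fold change, 30d over 3d, for the X (red, n = 1446), chromosome 4 (yellow, n = 84) and the arms 2L, 2R, 3L and 3R (grey, n = 7154), drawn from -2 to 2. Lines mark *roX1* at -0.58 and *roX2* at -0.74, at the low end of all 3 curves, and the X curve runs close to that of the autosome arms.

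Other cell markers moved in the same heads, in a table where 30.4% of all genes were called. Of 8 neuron markers 6 fell and 1 rose, and their summed level was 4702 to 4967 CPM at 30d, against 5677 to 6825 CPM at 3d. Of 7 glia markers 5 fell and 0 rose, with sums of 2846 to 2913 CPM at 30d and 3697 to 4386 CPM at 3d, but 3 of them were called with library size alone and 3 without 30d replicate 2. Of 14 muscle markers tested 13 fell and 0 rose, with sums of 3322 to 3443 CPM at 30d and 5097 to 7348 CPM at 3d. Of 11 photoreceptor markers 5 fell and 0 rose, with sums that overlapped between the ages. Of 6 fat body markers tested 2 rose and 0 fell, with sums of 8117 to 10043 CPM at 30d and 7337 to 7872 CPM at 3d (4 were called without a filter on low counts), and *Fbp2* was at 0 in every library. Of the neuron and glia markers, *elav*, *repo* and *moody* were not called, at log2 fold changes of -0.18, 0.17 and 0.13. *elav* shares 34.2% of its exon bases with other genes, so its count is uncertain. The part of the marker shifts in the roX result was not tested. Among the 3d samples the marker sums of replicate 1 were the highest for muscle, neurons and glia, and without that sample the roX falls were -0.60 for *roX1* and -0.76 for *roX2*.

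The genes whose levels ran most like those of the roX RNAs over the 6 samples were sought by Pearson correlation of log2(CPM + 0.5) among 6437 genes with a mean of at least 50 counts. With 2 ages and 6 samples such likeness is common: 332 genes passed a correlation of 0.95 with *roX1* and 316 with *roX2*. The 5 nearest to *roX1* were *CG17493*, *Pdfr*, which codes for the receptor of a clock neuropeptide, *MESK2*, *Hs6st*, a heparan sulfate sulfotransferase gene, and *VhaAC45RP*, with correlations of 0.996 to 0.997. Of these *Pdfr* is on the X, and it had 49.7 ± 1.16 CPM at 30d and 73.9 ± 0.851 CPM at 3d (SD, n = 3 each). The 5 nearest to *roX2* were *VGAT*, the vesicular GABA transporter gene, *CG8929*, *Gycalpha99B*, a guanylyl cyclase subunit gene, *CG4230* and *CG12851*, at 0.9959 to 0.9995, none of them on the X. *VGAT* had 55.7 ± 5.87 CPM at 30d and 108 ± 1.76 CPM at 3d (SD, n = 3 each). By Spearman correlation over these 6 samples 36 genes tied at 1 with *roX1* and 27 with *roX2*, so that measure defines no nearest 5.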

How the data were processed

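Polyadenylated RNA from fly heads was sequenced from a single end. The authors aligned the reads to dm6 with STAR 2.3.0e and counted them per gene with HTSeq 0.5.4e in its intersection-strict mode without strand, and the deposited values are these raw counts, with no normalization. DESeq 1.8.3 was used by the authors for normalized values not used here. The annotation release is not given in the sources used here. Symbols and positions came from Ensembl release 115 on the same assembly, in which 17356 of 17492 identifiers were found. All 6 columns were used and 0 were left unused.

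In R 4.3.3, edgeR 4.0.16 (filterByExpr with its minimum count of 10, TMM scaling) tested 30d over 3d with a two-sided quasi-likelihood F-test, and p-values of all 8773 genes that passed the filter were adjusted together by the Benjamini-Hochberg procedure, with 0.05 as the threshold. Standard errors are the size of the log2 fold change over the square root of F, and 95% intervals use the test's degrees of freedom. Reads carry no molecular identifiers, so any counting error given covers sampling of reads only. Replicates differed by more than counting noise, at 2.21 to 5.87 chi-squared units per degree of freedom. Alternatives were DESeq2's size factors, library size alone, limma-voom (limma 3.58.1), DESeq2 1.42.0 with its Wald test, no filter beyond 1 count, a floor of 10 counts for all samples, a block for the replicate number, and each sample left out. Scripts were tested on simulated data.

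The 7 genes and all lists were chosen with earlier results of these data known. Named genes were the 7, up to 4 of each list (those called with the largest change, then those with the most counts), the yolk protein genes, genes within 10 kb of a roX gene, and the 5 genes most correlated with each roX RNA. No sequences are shown.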

Additional observations from a re-analysis of the deposited data

How the results depend on the processing

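The calls of *roX1* and *roX2* held under all 13 alternatives, and 4 of the 5 protein genes stayed uncalled in all of them. *msl-2* passed only with library size alone (log2 fold change 0.31). The cofactor list had 2 genes called, 1 with DESeq2's size factors, 0 with DESeq2's Wald test, and 0 to 2 with a sample left out. The NSL list had 1 call, 0 with DESeq2's size factors, 0 with the Wald test, and 0 to 1 with a sample left out. The X-linked median of -0.01 became 0.066 with library size alone, -0.036 with the Wald test and -0.034 without a filter, where far more genes of low count were included. Genes near zero changed sign. With a sample left out, *Rcd1* ranged from -0.0089 to 0.065 (negative without 30d replicate 2), *ec* from -0.23 to 0.097 (positive without 3d or 30d replicate 1), *CG2930* from -0.15 to 0.0021 (positive without 30d replicate 3) and *e(y)2* from -0.054 to 0.39 (negative without 30d replicate 2), and with library size alone *Chro* was at 0.031 and *CG2930* at 0.010. The split of all calls, 1259 higher and 1410 lower, became 1715 and 1053 with library size alone. DESeq2's Wald test made 1807 calls in all, against 2669. Scaling by library size alone leaves out the TMM factors, which were 1.007 to 1.041 at 30d and 0.961 to 0.981 at 3d. It moved the median of all genes tested up by 0.077. The cause of the other shifts was not tested.

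Whether samples of the same replicate number belong together is not stated. Deviations of same-numbered samples correlated at 0.14, 0.017 and 0.052, and those of other pairs at -0.12 to 0.096. Not every sample correlated best with its own number. With the replicate block, the log2 fold changes were -0.58 for *roX1* and -0.74 for *roX2*, 2 of the 7 genes were called, and 2907 genes were called in all. Reads were fewest for *mof* and *msl-3*.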

Other observations

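Chromosome 4, which carries its own chromosome-wide regulator, the RNA-binding protein POF, had a lower median log2 fold change, 30d over 3d, than the X or the large autosome arms. It was singled out after its values were seen. Of its 84 genes tested, 4 were called higher and 35 lower at 30d, or 4.76% and 41.7%, beside 10.7% and 17.6% on the X. The median log2 fold change was -0.21, and -0.13 with library size alone. Per library, the median length-scaled level of chromosome 4 genes stood at 2.003, 2.04 and 2.08 times that of autosomal genes in the 30d samples and at 2.33, 2.25 and 2.18 times in the 3d samples. The ages did not overlap (exact two-sided permutation test, p = 0.1, the smallest that 3 samples against 3 allow). *Pof* itself, also named after its values were seen, had 16.99 ± 1.11 CPM at 30d and 19.1 ± 0.556 CPM at 3d (SD, n = 3 each), with a log2 change of -0.16 that was not called (edgeR BH-adjusted p = 0.415). Of the cell markers, 4 are on chromosome 4: the muscle marker *bt* (log2 change -0.56), the neuron marker *onecut* (-0.30), the glia marker *Gat* (-0.99) and the fat body marker *apolpp* (0.28, not called). Of the glia markers on other chromosomes, *repo* and *moody* were at 0.17 and 0.13 and were not called. The others, *Gs2*, *Eaat1*, *nrv2* and *alrm*, were called lower, at -0.30, -0.57, -0.93 and -0.28. The part of such markers in the chromosome's values was not tested.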
